A study of Mus musculus with 84 samples.

Results

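Dppa5a, Dppa3, Dazl, Pou5f1 and Rhox5 are 5 genes known from germ cells and pluripotent cells, and their transcripts were followed here through 84 single cells sorted as endothelium. The 5 genes were chosen because earlier results on these cells showed them together, and each is 1 row of a table of 20308 genes. The cells were taken from mouse embryos at E11.5 (E marks the embryonic day), out of the aorta-gonad-mesonephros or AGM, the part of the trunk with the dorsal aorta, the primitive kidney and the developing gonad. The sort kept cells positive for CD31, encoded by Pecam1, and for CD144, encoded by Cdh5, while cells with CD41 (Itga2b) or CD45 (Ptprc) were discarded. No strain, allele or treatment is named in the labels used here. The embryo of origin is likewise not named, so the 84 cells form a single group with the standing of 1 sample, and values are described without tests. Levels are TPM, transcript levels per length, scaled to the same total in each cell, so the number of reads behind a value is unknown, and a value of 0 can be a missed transcript. Cells are called by the running number in their labels.

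Primordial germ cells are the embryonic founders of eggs and sperm. In the mouse they travel through the hindgut and its mesentery to the genital ridges, which lie beside the AGM. They keep parts of the pluripotency programme, such as Pou5f1 and Dppa3, and gain germ cell genes such as Dazl as they settle in the gonad. Mouse primordial germ cells are also known to carry PECAM1, the protein used as an endothelial sort marker.

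The genes lie on 4 chromosomes. Positions are from RefSeq on GRCm38.p6, which is the mouse build known as mm10. Dppa5a spans chr9:78367052-78368199, Dppa3 chr6:122626424-122630271, Dazl chr17:50279393-50293620, Pou5f1 chr17:35506032-35510777 and Rhox5 chrX:37754608-37808878. Upstream sequence from RefSeq (GRCm38.p6) was at hand for 3 of the 5, Dazl, Pou5f1 and Rhox5. It is shown because these 3 genes were found together in the same cells, so that their upstream regions can be compared. Each line gives the 250 bases before the annotated start, 5′ to 3′ on the gene's strand, with CG dinucleotides, the sites of DNA methylation, in capitals. The Dazl stretch is chr17:50293621-50293870 on the minus strand, the Pou5f1 stretch chr17:35505782-35506031 on the plus strand, and the Rhox5 stretch chrX:37754358-37754607 on the plus strand.
Dazl: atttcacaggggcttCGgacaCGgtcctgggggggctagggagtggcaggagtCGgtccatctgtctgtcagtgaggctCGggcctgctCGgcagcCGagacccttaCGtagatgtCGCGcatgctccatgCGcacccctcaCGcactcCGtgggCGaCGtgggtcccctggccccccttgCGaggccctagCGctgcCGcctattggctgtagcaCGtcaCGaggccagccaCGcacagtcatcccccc
Pou5f1: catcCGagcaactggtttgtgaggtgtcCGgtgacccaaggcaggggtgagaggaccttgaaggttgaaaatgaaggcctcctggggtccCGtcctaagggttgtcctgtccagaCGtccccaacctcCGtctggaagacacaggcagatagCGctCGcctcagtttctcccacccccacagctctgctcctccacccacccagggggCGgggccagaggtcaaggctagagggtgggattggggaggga
Rhox5: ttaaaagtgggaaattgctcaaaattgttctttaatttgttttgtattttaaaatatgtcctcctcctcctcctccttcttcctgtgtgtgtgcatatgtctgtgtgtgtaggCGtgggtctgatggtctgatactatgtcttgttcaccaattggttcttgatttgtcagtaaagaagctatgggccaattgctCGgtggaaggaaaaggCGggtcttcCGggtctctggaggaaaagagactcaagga

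Dazl had 20 CG in these 250 bases, more than 82.1% of 32851 RefSeq promoters cut to the same length. Pou5f1 had 8, more than 57% of them, and Rhox5 had 4, more than 37.8%, where the median promoter had 6. The octamer ATGCAAAT, the motif named for POU factors such as the Pou5f1 protein, had 0 matches on either strand in the 3 stretches and occurred in 1.60% of all promoters. The E-box CACGTG also had 0 matches (6.02% of promoters). The GC box GGGCGG matched once, in Pou5f1, where it holds 1 of the CG, and it occurred in 32.7% of promoters. Rhox5 has more than 1 annotated start, since GENCODE vM21 begins the gene at position 37804842 and the stretch above lies at the outer RefSeq start.

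Reads were 67 bases long, so transcripts that share 67-base stretches with other genes could have had reads divided. In GENCODE vM21, 25.3% of the 67-base windows of Dppa5a transcripts also occurred in transcripts of other genes, among them Gm6798, Gm15310 and the pseudogenes Dppa5b and Dppa5c on the same chromosome. The share was 7.64% for Dppa3, with Dppa3-ps as the main partner, and 8.05% for Pou5f1, with Gm19553. Dazl and Rhox5 shared 0 windows. Levels of Dppa5a are uncertain to that extent.

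Among the 84, 3 libraries stood apart from the others in ways that touch these genes. Cells 62, 31 and 81 had the most genes at TPM 1 or more, 10073, 9884 and 9548, where the next cell had 8543. They also had the highest median correlation with the rest, 0.757 each on log2(TPM + 1) over all genes, and cells 62 and 81 were the most alike pair of the series (r = 0.880). These 3 were picked out with their values in view. Some results that rest on cell 62 or 81 are also given without these 3, and the others only with them. The labels describe every library as a single cell, and shares over 84 take each as 1 cell. Whether these 3 libraries hold RNA of more than 1 cell was not tested.

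At TPM 10 or more the 5 genes fell into very few cells. Dppa5a reached TPM 10 in 4 of 84 cells, or 4.76% (95% Clopper-Pearson interval 1.31% to 11.7%, for counting error over cells only). Dppa3 and Dazl each did in 3 cells, or 3.57% (0.743% to 10.1%). Pou5f1 did in 2 cells, or 2.38% (0.290% to 8.34%), and Rhox5 in 5, or 5.95% (1.96% to 13.3%). At TPM 100 the counts were 3, 3, 3, 1 and 4 in the same order. Without cells 31, 62 and 81 the counts at TPM 10 were 2 for Dppa5a, Dppa3, Dazl and Pou5f1, and 3 for Rhox5.

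The cells were largely the same ones. Cells 4 and 79 held all 5 genes at TPM 10 or more, and cell 62 held 4, so 3 cells, or 3.57%, had 3 or more of the genes. Cell 81 held 2, cell 39 held 1, and the remaining 79 cells held 0. All 3 cells with Dppa3 also held Dazl, Dppa5a and Rhox5, while these 3 cells were 3 of the 4 with Dppa5a and 3 of the 5 with Rhox5. Without cell 62, the count of cells with 3 or more genes was 2.

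**Figure D1:**
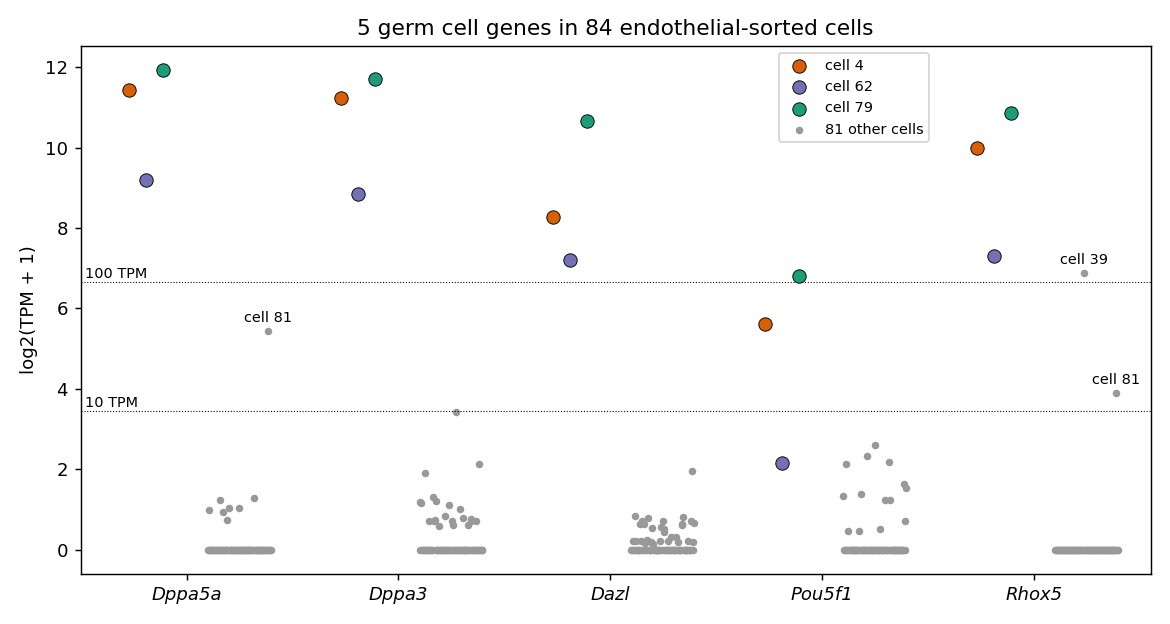
Level of each gene as log2(TPM + 1) in cells 4, 62 and 79 (coloured points, left) and the 81 other cells (grey points, right), with dotted lines at 10 and 100 TPM. The coloured points lie above every grey one except for Pou5f1, where cell 62 at 3.44 TPM lies within the grey points, which reach 5.06 TPM.

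Dppa5a encodes a KH-domain RNA-binding protein of pluripotent and germ cells and read highest of the 5. It stood at 2763 TPM in cell 4, 587 TPM in cell 62 and 3902 TPM in cell 79, against 42.7 TPM in cell 81, at most 1.45 TPM in any further cell and 0 TPM in 73 of the 81 others. Cell 81 was therefore the one intermediate cell, and no other overlapped the range between.

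Dppa3, also called Stella, encodes a protein that guards DNA methylation in the early embryo and is a classic marker of primordial germ cells. It stood at 2404 TPM in cell 4, 463 TPM in cell 62 and 3312 TPM in cell 79, against 9.68 TPM in cell 48, at most 3.41 TPM in any further cell and 0 TPM in 60 of the 81 others. Cell 48, just under the limit of TPM 10, held Dppa3 with Dppa5a at 0 TPM and Dazl at 0.16 TPM. Cell 81, which held Dppa5a, had Dppa3 at 0 TPM.

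Dazl encodes an RNA-binding protein needed for germ cells to develop further. It stood at 307 TPM in cell 4, 148 TPM in cell 62 and 1618 TPM in cell 79, against 2.86 TPM in cell 81 and at most 0.79 TPM elsewhere. Traces above 0 were found in 30 of the 81 other cells, the most for any of the 5 genes, although 29 of these 30 were below TPM 1.

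Pou5f1, the pluripotency transcription factor also called Oct4, was the lowest of the 5. It stood at 48.1 TPM in cell 4, 3.44 TPM in cell 62 and 111 TPM in cell 79, against 5.06 TPM in cell 42, 4.03 TPM in cell 32 and 0 TPM in 67 of the 81 others. Cell 62 therefore overlapped the other cells for Pou5f1, and cells 4 and 79 did not.

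Rhox5 encodes a homeodomain protein from a cluster of reproductive homeobox genes on the X chromosome. It stood at 1011 TPM in cell 4, 157 TPM in cell 62 and 1848 TPM in cell 79, against 118 TPM in cell 39, 13.9 TPM in cell 81 and 0 TPM in the other 79 cells. Cell 39 held none of the other 4 at TPM 1, and its Dppa5a, Dppa3 and Pou5f1 were at 0 TPM. It differed in kind as well, with 2696 TPM of the neuronal tubulin gene Tubb3 and 1 of 17 pan-endothelial genes at TPM 10.

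The order of the levels was the same in cells 4, 62 and 79, with Dppa5a and Dppa3 highest, then Rhox5, Dazl and Pou5f1. Dppa5a read slightly above Dppa3 in each, a gap too small to rank them given its shared windows. Dppa5a and Dppa3 kept nearly the same ratio, at 1.15 in cell 4, 1.27 in cell 62 and 1.18 in cell 79. Dppa5a over Dazl varied more, at 9.01, 3.98 and 2.41 in the same cells. Between cells, cell 79 exceeded cell 62 by 6.64-fold for Dppa5a and 7.16-fold for Dppa3, by 11-fold for Dazl and 11.8-fold for Rhox5, and by 32.2-fold for Pou5f1. The 5 genes together made up 0.653% of the TPM of cell 4, 0.136% in cell 62 and 1.08% in cell 79, against at most 0.0118% in any other cell.

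Other germ cell genes, not used to pick these cells, were examined next in 4 lists of 43 genes, all of them in the table. The lists were chosen with earlier results of these data known, so their counts describe the cells and are no independent support. Of the 43, 26 reached TPM 10 in cell 4, 15 in cell 62 and 27 in cell 79, against a median of 3 and a range from 0 to 7 in the 81 other cells. The highest of the others was cell 31 with 7, and cells 81 and 39 had 5 and 2. Cells 4 and 79 thus carried many more listed transcripts than any other cell, and cell 62 fewer than those but more than the rest. Of all genes, 28.3% reached TPM 10 in cell 4, 29.4% in cell 62 and 26.8% in cell 79, against a median of 24.1% in the others. The count of cell 62, the library with the most genes detected, was thus little above its share of all genes. The mean log2(TPM + 1) in the 3 cells was over 1 unit higher for 34 of the 43 genes and over 1 unit lower for 0, with a median difference of 3.46. Over all 20308 genes 16.8% were that much higher and 5.35% that much lower, with a median of 0. Without cells 31, 62 and 81 the count was 32 of 43, where 18.5% of all genes were that much higher.

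**Figure D2:**
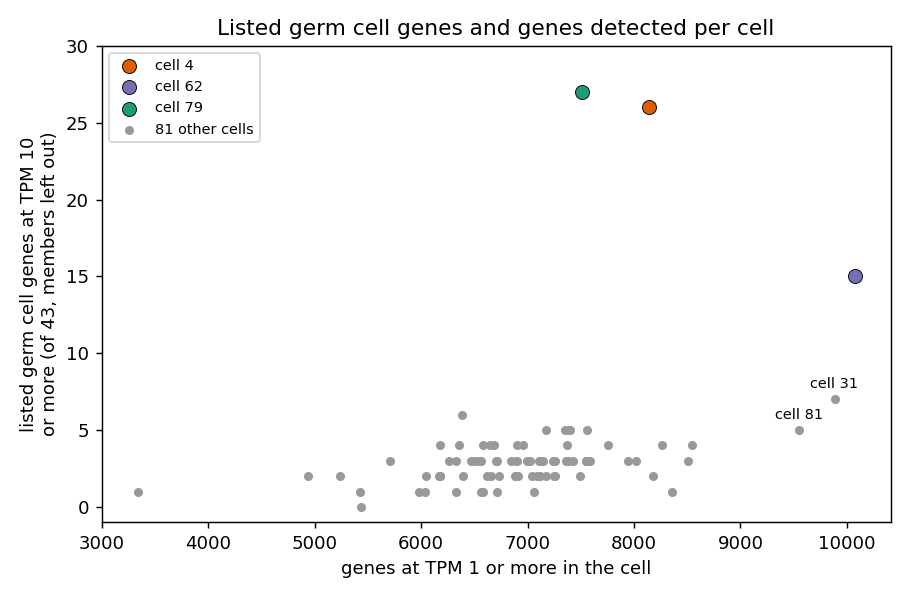
Each point is 1 cell, with genes at TPM 1 or more on the horizontal axis and, on the vertical axis, how many of 43 listed germ cell genes reached TPM 10. Cells 79, 4 and 62 hold 27, 26 and 15, and the 81 other cells 0 to 7. On the horizontal axis cells 4 and 79, at 8140 and 7510 genes, lie above the upper quartile of the others, 7384, though within their range. Cell 62 is the farthest right.

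Regulators that set up and keep the germ line were mostly high in cells 4 and 79 and lower in cell 62. Of 11 genes 10 reached TPM 10 in cell 4, 4 in cell 62 and 10 in cell 79, against a median of 1 and a range from 0 to 4 in the others. Over all genes of the table, 28.3% reached TPM 10 in cell 4, 29.4% in cell 62 and 26.8% in cell 79. The count of cell 62 was thus matched among the other cells and near the share of all genes. The transcription factors Prdm14 and Tfap2c, which act together with Prdm1 in germ cell specification, reached TPM 10 in cells 4 and 79 only. Prdm14 stood at 31.4, 0 and 43 TPM in cells 4, 62 and 79, against at most 0.34 TPM elsewhere. Tfap2c stood at 16.6, 8.37 and 47.2 TPM, against 0 TPM in all 81 other cells. Prdm1 stood at 78.4, 5.75 and 89.5 TPM but overlapped the others, 14 of which reached TPM 10 with a maximum of 206 TPM.

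Nanos3, an RNA-binding protein that keeps migrating germ cells alive, stood at 117, 3.30 and 58.4 TPM in cells 4, 62 and 79, against at most 13.8 TPM elsewhere. Alpl, the alkaline phosphatase long used to stain primordial germ cells, stood at 56.4, 2.77 and 80.4 TPM, against at most 1.57 TPM. Sall4, a zinc finger factor of stem and germ cells, stood at 439, 31.2 and 1625 TPM, against a maximum of 193 TPM, and 9 of the other cells reached TPM 10. For Sall4, cell 62 therefore lay inside the range of the other cells.

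The membrane protein gene Ifitm1, known from early germ cells, stood at 568, 294 and 738 TPM, above the 103 TPM of the highest other cell. Its relative Ifitm3 did not separate the cells, at 691, 208 and 449 TPM, since 45 of the others reached TPM 10 with a maximum of 520 TPM. Kit, the receptor for stem cell factor on germ and blood-forming cells, stood at 72.9, 19 and 87.3 TPM and reached TPM 10 in 33 other cells, with a maximum of 229 TPM.

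Of 13 genes shared with naive pluripotent cells, 7 reached TPM 10 in cell 4, 7 in cell 62 and 10 in cell 79, against a median of 1 and a range from 0 to 3 in the others. All 3 counts were above that range and above the shares of all genes given for these cells. Dppa4, a nuclear protein of pluripotent cells, stood at 265, 75.2 and 831 TPM in cells 4, 62 and 79, against at most 0.51 TPM elsewhere. Utf1, a chromatin factor, stood at 184, 13.5 and 640 TPM, against at most 3.82 TPM. Zfp42, also called Rex1, stood at 161, 28.6 and 90.9 TPM, against at most 9.43 TPM. L1td1, an RNA-binding protein, stood at 260, 38.7 and 108 TPM, against at most 9.13 TPM. For these 4 genes the 3 cells did not overlap the other 81. The same held for Tcl1, at 3.78, 3.36 and 385 TPM against 0 TPM in all others, so 5 of the 13 did not overlap. Over all genes of the table the 3 cells lay above every other cell for 0.162%.

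Further genes of the list were uneven among the 3 cells. Dppa2, a partner of Dppa4, stood at 0.54, 36 and 184 TPM in cells 4, 62 and 79, and 1 other cell held it at 183 TPM. Tdgf1, a co-receptor for Nodal, stood at 73.7, 15.8 and 0 TPM, against at most 2.01 TPM elsewhere. Klf2, also known as a flow-responsive gene of endothelium, stood at 23.9, 6.33 and 21 TPM and reached TPM 10 in 24 other cells. The list members Tfcp2l1 and Fgf4 reached TPM 10 in none of the 3.

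Nanog, which encodes a central pluripotency factor, was high in most cells. It was among the 34 higher genes, with a mean log2 difference of 2.27, yet it reached TPM 10 in 79 of 84 cells. It stood at 215, 1406 and 643 TPM in cells 4, 62 and 79, against a median of 142 TPM and a maximum of 958 TPM in the others, so that cell 62 exceeded every other cell and cells 4 and 79 did not. In GENCODE vM21, 2.21% of the 67-base windows of Nanog transcripts also occurred in transcripts of other genes, led by the pseudogene Nanog-ps1. The part of shared reads in the Nanog values was not tested.

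**Figure D3:**
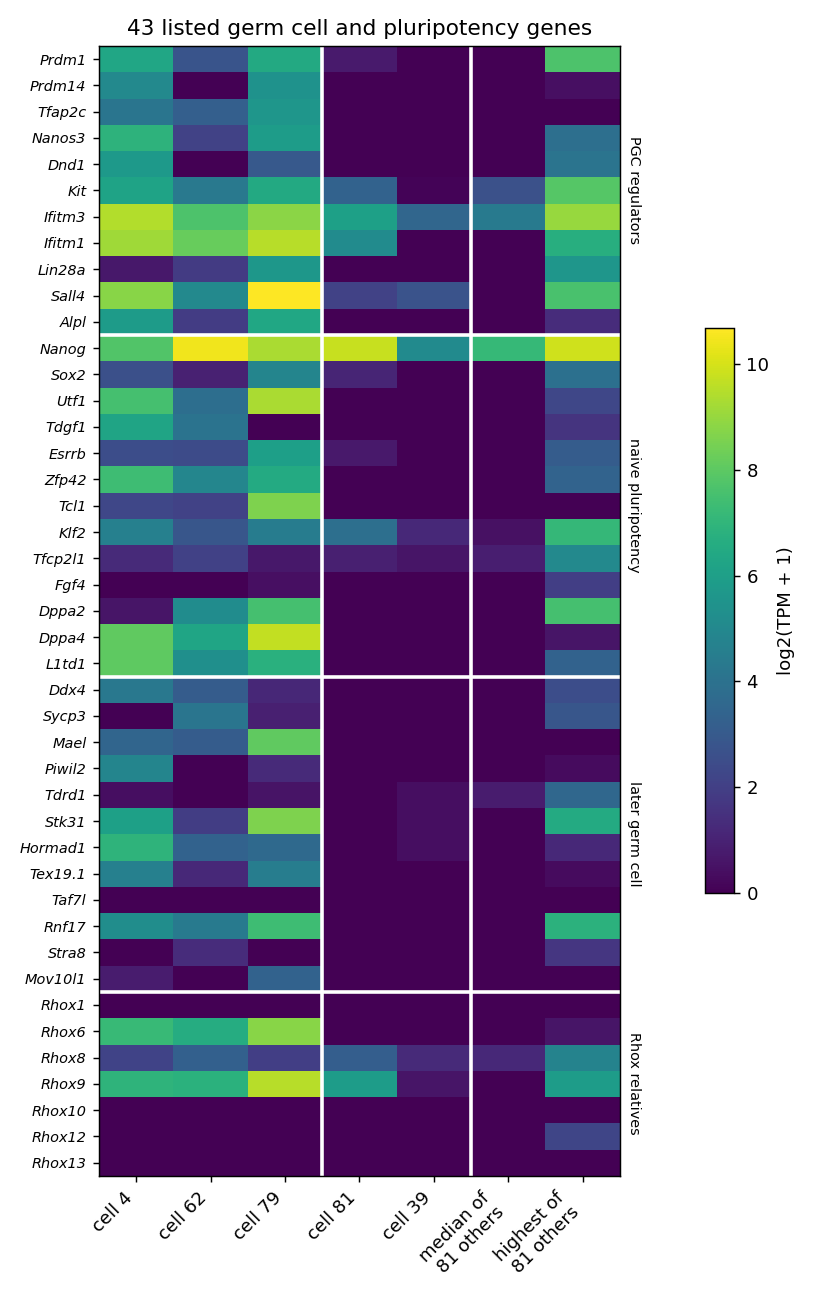
Colours give log2(TPM + 1) of 43 listed genes in cells 4, 62 and 79, then cells 81 and 39, then the median and the highest value of the 81 other cells (cells 81 and 39 among them). Most rows are bright in cells 4 and 79, weaker in cell 62 and dark in the median of the others, with Nanog bright throughout.

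Genes of later germ cells, which silence transposons or prepare meiosis, were less complete. Of 12 genes 7 reached TPM 10 in cell 4, 2 in cell 62 and 5 in cell 79, against a median of 0 and a range from 0 to 2 in the others. The count of cell 62 was within that range and below the 29.4% of all genes at TPM 10 in that cell. Mael, of the transposon-silencing machinery, stood at 10.3, 7.59 and 266 TPM, against 0 TPM in all other cells. Hormad1, a protein of meiotic chromosome axes, stood at 122, 9.32 and 11.4 TPM, against at most 1.37 TPM. Tex19.1, which restrains retrotransposons in germ cells, stood at 24.1, 1.34 and 22.3 TPM, against at most 0.24 TPM. These 3 of the 12 genes lay above every other cell in all 3 cells, as 0.162% of all genes did, whereas the next ones overlapped.

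Stk31, a germ cell kinase-like protein, stood at 65.1, 2.86 and 385 TPM in cells 4, 62 and 79, and 1 other cell held it at 91.5 TPM. Rnf17, a Tudor-domain protein, stood at 36.1, 20.2 and 161 TPM, and 3 other cells reached TPM 10, with a maximum of 113 TPM. Tdrd1, Taf7l, Stra8 and Mov10l1 reached TPM 10 in none of the 3 cells. Ddx4, the germ cell RNA helicase also called Vasa, stood at 18.1, 7.55 and 1.30 TPM, against at most 4.70 TPM elsewhere. Stra8, which marks entry into meiosis, stood at 0, 1.55 and 0 TPM.

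Among the neighbours of Rhox5 in its cluster, 2 of 7 reached TPM 10 in each of cells 4, 62 and 79. That count was near the shares of all genes at TPM 10 in these cells, 28.3%, 29.4% and 26.8%. Rhox6 stood at 144, 97.5 and 442 TPM in cells 4, 62 and 79, against at most 0.54 TPM elsewhere. Rhox9 stood at 123, 111 and 734 TPM, against 58.7 TPM in cell 81 as the highest other cell. Cell 81 thus held Dppa5a, Rhox5 and Rhox9 together, with Rhox6 at 0 TPM. Of the windows of Rhox6, 13.2% also occurred in Rhox9. Rhox1, Rhox8, Rhox10, Rhox12 and Rhox13 reached TPM 10 in none of the 3 cells.

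Over the whole table, 33 of 20308 genes (0.162%) had their lowest value in cells 4, 62 and 79 above every other cell, and 0 had their highest value below every other cell. They held 4 of the 5 chosen genes, all but Pou5f1, and 13 of the 43 listed genes. That lowest value was TPM 10 or more for 19 of the 33 genes and for 7 of the 13 listed ones. The rest separated at lower values, where a 0 TPM in other cells can be a missed transcript. Without cells 31, 62 and 81, 71 of 20308 genes separated cells 4 and 79 from the rest, among them all 5 chosen genes and 18 of the 43. Fewer cells must then lie above fewer others, which lets more genes of any kind pass. The rise in these counts is therefore no sign of a sharper separation. The 5 chosen genes defined these cells, so their place in both counts follows largely from that choice.

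The genes most like the mean of the 5 were sought by Pearson correlation of log2(TPM + 1) over the 84 cells, among 11558 genes at TPM 10 or more in 3 or more cells. The 10 closest were Tdh, Gstm3, Rhox2a, Dppa4, BC048679, Rhox6, Dmrt1, Rpl39l, Tuba3a and Utf1, with r from 0.977 to 0.951. Each rests on 3 cells, since in the other 81 none of the 10 exceeded 3.82 TPM. Tdh, a threonine dehydrogenase of embryonic stem cells, stood at 146, 65.9 and 439 TPM in cells 4, 62 and 79, against 0 TPM in all others. Dmrt1, a transcription factor of gonads and germ cells, stood at 17.0, 13.9 and 33.3 TPM, against at most 0.31 TPM. Gstm3, a glutathione transferase, stood at 151, 41.1 and 457 TPM, against at most 0.54 TPM. Rhox2a shared 82.1% of its 67-base windows with other Rhox2 copies, so its level is uncertain.

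By single gene, Rhox9 was closest to Dppa5a (r = 0.969), followed by Dazl (0.965) and Tdh (0.949). Tdh, Rpl39l and Rhox2a were closest to Dppa3, with r of 0.956, 0.955 and 0.955. Rhox2a, Tdh and Gstm3 were closest to Dazl (0.981, 0.981 and 0.980), and BC048679, Utf1 and Gstm3 to Pou5f1 (0.825, 0.823 and 0.822). Dppa5a, Rhox9 and Dazl were closest to Rhox5 (0.910, 0.905 and 0.905). These are descriptions over cells that share few high values.

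Endothelial transcripts were present in the same 3 cells. Pecam1 stood at 237, 58.1 and 119 TPM in cells 4, 62 and 79, against a median of 152 TPM and a range from 0 to 820 TPM in the other 81. Cdh5, which encodes VE-cadherin, stood at 94.0, 111 and 56.3 TPM, against a median of 146 TPM and a range from 0 to 483 TPM. Itga2b stood at 0, 0.68 and 0 TPM, against a maximum of 686 TPM. Ptprc was listed at 0 TPM in all 84 cells. Pecam1 exceeded 66.7% of the other cells in cell 4, 18.5% in cell 62 and 34.6% in cell 79, and Cdh5 exceeded 30.9%, 34.6% and 16% of them.

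Of 17 pan-endothelial genes 17 reached TPM 10 in cell 4, 14 in cell 62 and 14 in cell 79, against a median of 15 and a range from 0 to 17 in the other cells. Of the 17, 9 lay above the median of the other cells in cell 4, 3 in cell 62 and 7 in cell 79. None exceeded the highest other cell, and low values cannot fall below the others, some of which hold almost no endothelial transcripts. The summed level of the list was 2912 TPM in cell 4, 2863 TPM in cell 62 and 1230 TPM in cell 79, against a median of 3629 TPM and a range from 5.14 to 10383 TPM. Cell 79, the richest in germ cell transcripts, was the lowest of the 3 in this sum.

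Of the 17, 11 reached TPM 10 in all 3 cells, and Flt1, Tek, Ets1, Erg, Cldn5 and Sox18 in 2 of them. Kdr, the main VEGF receptor, stood at 219, 111 and 105 TPM in cells 4, 62 and 79, against a median of 160 TPM. Emcn, the sialomucin endomucin, stood at 786, 1591 and 156 TPM, against a median of 939 TPM. In cell 79 the transcription factor Ets1 stood at 2.22 TPM, against a median of 189 TPM, the receptor Tek at 1.31 TPM, against 66.8 TPM, and Sox18 at 0 TPM, against 33.3 TPM. In cell 62 the genes below TPM 10 were Flt1 (8.02 TPM), Erg (6.12 TPM) and Cldn5 (9.98 TPM).

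**Figure D4:**
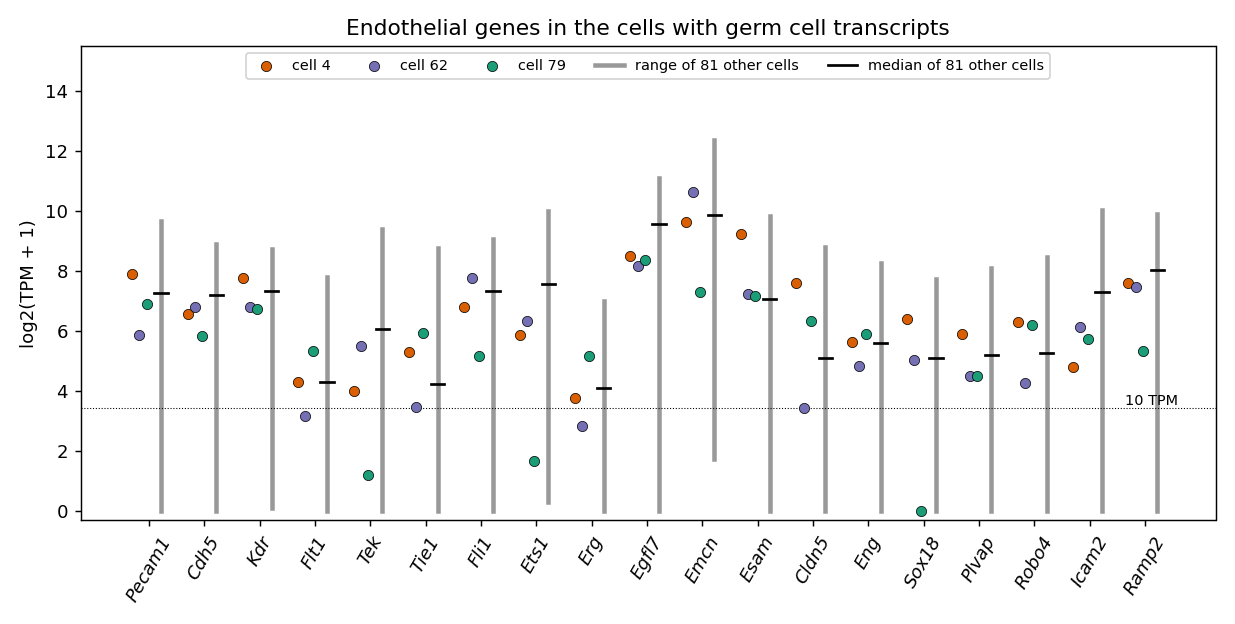
Level as log2(TPM + 1) of Pecam1, Cdh5 and 17 pan-endothelial genes in cells 4, 62 and 79 (coloured points), beside the range (grey bar) and median (black line) of the 81 other cells; the dotted line is 10 TPM. No coloured point exceeds its grey bar, and Tek, Ets1 and Sox18 of cell 79 lie below 10 TPM.

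Cell 81, with 42.7 TPM of Dppa5a, reached TPM 10 for 17 of 17 pan-endothelial genes, and cell 39, with 118 TPM of Rhox5, for 1 of 17. In cell 39 Cdh5 stood at 2.08 TPM and Kdr at 1.15 TPM. The intermediate Dppa5a level was thus found beside a full set of endothelial transcripts, and the isolated Rhox5 level beside very few. Cell 81 is one of the 3 libraries with the most genes detected. Cells 46 and 47, with all 5 chosen genes at 0 TPM, also reached 17 of 17.

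Markers of further cell types were counted in the same cells. Of 8 epithelial or mesonephric genes 2 reached TPM 10 in cell 4, 0 in cell 62 and 3 in cell 79, against 0 to 2 in the others. Of all genes, 28.3%, 29.4% and 26.8% did. The count of cell 4 was thus near its share, and that of cell 79 little above it. The sums were 141, 3.43 and 348 TPM, against a range from 0 to 477 TPM in the others. Cdh1, which encodes the adhesion protein E-cadherin also found on germ cells, stood at 81.5, 0 and 57.6 TPM, against at most 1.06 TPM elsewhere. The kidney regulator Lhx1 stood at 52.6, 0 and 26.9 TPM, and 1 other cell held it at 476 TPM. Epcam, an epithelial adhesion protein gene, stood at 0, 3.43 and 264 TPM, against at most 98.9 TPM elsewhere, and made up most of the sum in cell 79. Pax8 stood at 6.93, 0 and 0 TPM, against at most 0.22 TPM. Krt18, Krt19 and Pax2 were at 0 TPM in all 3 cells, and Krt8 was at 0 TPM in all 84. The part of these markers in the germ cell transcripts of cells 4 and 79 was not tested.

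Cell 62 alone of the 3 held erythroid, mesenchyme and neural transcripts at TPM 10. Of 8 erythroid genes 0, 3 and 0 reached TPM 10 in cells 4, 62 and 79, with sums of 0, 332 and 0 TPM against 0 to 619 TPM in the others. Hba-a2 and Hba-a1 are near-identical alpha globin genes, so their separate levels are uncertain, and Hba-a2 stood at 275 TPM in cell 62 and 149 TPM in cell 81. Of 11 mesenchyme genes 0, 3 and 0 reached TPM 10, with sums of 0.40, 89.5 and 7.64 TPM against 0.04 to 3019 TPM. Of 8 neural genes 0, 2 and 0 did, with sums of 6.21, 24.8 and 0.27 TPM against 0 to 5562 TPM. In the other cells up to 3 erythroid, 9 mesenchyme and 5 neural genes reached TPM 10. Of all genes, 29.4% did in cell 62, so its counts were near that share and within the range of the other cells.

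Of 8 gonadal somatic genes 0, 1 and 0 reached TPM 10 in cells 4, 62 and 79, with sums of 2.01, 18.3 and 6.56 TPM against 0 to 715 TPM. The count of cell 62 was below the 29.4% of all genes at TPM 10 in that cell. Sox9, a regulator of Sertoli and other cells, stood at 2.01, 11.2 and 6.56 TPM, against a median of 0.29 TPM and a maximum of 198 TPM. Cell 62 also held Emx2 at 3.19 TPM, Lhx9 at 2.03 TPM, Amhr2 at 1.2 TPM and Gata4 at 0.68 TPM, all at 0 TPM in cells 4 and 79. Wt1 was at 0 TPM in all 3 cells and at TPM 10 in 6 others, while Nr5a1 and Upk3b were at 0 TPM in all 84 cells and so do not tell cells apart. Of 7 macrophage genes 0 reached TPM 10 in any of the 3, with sums of 2.42, 10.3 and 0.82 TPM against 0 to 497 TPM, and Csf1r, C1qa and C1qb were at 0 TPM. The part of these markers in the germ cell transcripts of cell 62 was not tested.

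The labels give a pair of library indices for each cell, and the second index splits the cells into 7 sets of 12. Cells 4, 62 and 79 lay in 3 different sets and carried 3 different first indices. Cell 81 shared its second index with cell 79, and cell 39 shared neither index with any of the 3. Dppa5a was above 0 TPM in 3 of the 33 other cells that share a second index with one of the 3 cells, and in 5 of the 48 that do not. For Dppa3 the counts were 8 of 33 and 13 of 48, for Dazl 12 of 33 and 18 of 48, for Pou5f1 7 of 33 and 7 of 48, and for Rhox5 1 of 33 and 1 of 48. By the first index, which 18 other cells share with one of the 3 and 63 do not, the counts were 1 of 18 and 7 of 63 for Dppa5a, 4 of 18 and 17 of 63 for Dppa3, and 8 of 18 and 22 of 63 for Dazl. They were 1 of 18 and 13 of 63 for Pou5f1, and 0 of 18 and 2 of 63 for Rhox5. The part of index sharing in the low values was not tested.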

How the data were processed

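The series holds 84 single cells sorted as CD31+CD144+CD41-CD45- from the AGM of E11.5 mouse embryos. Per the labels' protocols, cells were captured on a microfluidic chip for 10 to 17 µm cells, a SMARTer kit gave full-length cDNA, and Nextera XT libraries were read single-end at 67 bp, 24 libraries per lane. The deposited values are TPM made by the authors, for 20308 genes, and each column sums to between 999998 and 1000002. Per the submitters' processing notes the tools were Bowtie 0.12.9, RSEM 1.2.3 and CASAVA 1.8.2, with build mm10. Their settings and the annotation were not given in the sources used here. Depth per cell is unknown, because read numbers cannot be had from TPM.

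The members and lists were chosen with earlier results of these data known. The table was read with Python 3.11.15, pandas 2.3.3 and numpy 2.4.6, and intervals were made with scipy 1.17.1. A gene counted as present at TPM 10, with TPM 1 and 100 as alternatives, and cells with 3 or more of the 5 genes were described 1 by 1. Mean differences used log2(TPM + 1) over the whole table, with no filter on low values, a pseudocount of 1 and a limit of 1 log2 unit. That scale understates differences of low genes. Likeness used genes at TPM 10 in 3 or more cells, which a gene can pass through the 3 cells alone. The ranking was run on simulated data with planted genes high in these 3 cells and at 0 TPM elsewhere. Such genes must rank high, so that run cannot show what likeness resting on 3 cells means. Genes named are the 5 members, the sort genes, list genes at TPM 10 in 2 or more of the 3 cells, list genes at TPM 10 in none of them where 5 or fewer, the pan-endothelial genes at TPM 10 in the most and the fewest of them, other cell type markers at TPM 10 in 2 or more of them, the 10 genes most like the member mean and the 3 most like each member. Others were chosen after their values were seen. The lists numbered 13 with 120 genes, of which 119 had a row, all but Adgre1. No doublet caller was run, and no cell was left out.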

Additional observations from a re-analysis of the deposited data

How the results depend on the processing

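Of 44 alternative values, 34 stayed within the counting error or within 1.5 times of the reported one, and 10 moved. The counting error is wide for so few cells, so Dppa5a in 8 cells at TPM 1, against 4 at TPM 10, counted as unmoved. Counts at different limits come from the same cells, so this error does not measure their change. With any value above 0 TPM counted, Dppa5a was found in 11 cells, Dppa3 in 24, Dazl in 33 and Pou5f1 in 17, and at TPM 1 Dppa3 was found in 12 and Pou5f1 in 13. Cells with 3 or more genes numbered 3 at TPM 100 and 4 at TPM 1, the 4th being cell 81. The median number of pan-endothelial genes in cells 4, 62 and 79 was 14 at TPM 10, 17 at TPM 1 and 6 at TPM 100. The 34 listed germ cell genes that were higher became 26 with a pseudocount of 10, where all genes that much higher were 5.59%. When cell 4, 62 or 79 was left out in turn, they numbered 32 to 33. All genes that much higher were then 18.1% to 18.4%. Of the 10 genes most like the 5, Spearman's rho gave 0 in common, and the cause was not tested. Leaving out cells 31, 62 and 81, an alternative chosen after seeing the data, also gave 0, since 0 of the 10 then reached TPM 10 in 3 cells. No paired analysis was possible because the cells form 1 group. Unknown depth limits what a 0 or a low value can show.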

Other observations

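Of the 33 genes whose lowest value in cells 4, 62 and 79 exceeded every other cell, 16 were in none of the lists. For 8 of these 16 that lowest value was TPM 10 or more. Fkbp6, known from meiosis and transposon silencing in the testis, stood at 146, 40.7 and 19.5 TPM in cells 4, 62 and 79, against 10.2 TPM in cell 81 as the highest other cell. Smc1b, a cohesin subunit of meiotic chromosomes, stood at 77.9, 2.86 and 24.5 TPM, against at most 1.81 TPM. Tex14, a component of the bridges between germ cells, stood at 18.1, 4.86 and 153 TPM, against at most 3.26 TPM. Syce3, of the synaptonemal complex, stood at 2.49, 5.53 and 2.45 TPM, against 0 TPM in all others. These 4 were chosen after their values were seen.

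Cell 81 held 6 of the 33 genes at TPM 1 or more and 27 at 0 TPM. The 6 were Rhox9 (58.7 TPM), Dppa5a (42.7 TPM), Ifitm1 (34.3 TPM), Rhox5 (13.9 TPM), Fkbp6 (10.2 TPM) and Dazl (2.86 TPM). Dppa3, at 463 TPM in cell 62 and next to Dppa5a there, was at 0 TPM in cell 81.

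Cell 31, the second richest in genes detected, had all 5 chosen genes at 0 TPM, with 7 of the 43 listed germ cell genes at TPM 10 and 16 of 17 pan-endothelial genes. Cells 62 and 81 each had 3 of 8 erythroid genes at TPM 10, with sums of 332 and 268 TPM, and cell 31 had 2, with a sum of 148 TPM.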
